A study of Homo sapiens with 12 samples.

Results

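Messenger RNA of the aldo-keto reductase family was followed in A549 cells across loss of RNase L and transfection of poly(I:C). The genes were chosen by symbol, AKR1A1, AKR1B1, AKR1B10, AKR1C1, AKR1C2, AKR1C3 and AKR1C4, and all 7 were found once among the 58671 gene rows of the deposited table, each at 1 FPKM or more in some group. A549 cells derive from a lung carcinoma and are epithelial. The groups were RNase L knockout cells (RLKO) given poly(I:C), untreated RLKO cells, parental cells (WT) given poly(I:C) and untreated WT cells, with 3 samples each and 12 in all. The treatment was transfection of poly(I:C), a mimic of viral double-stranded RNA, at 500 ng/ml, and RNA was taken at 6 h. The sources used here do not say whether the RLKO line is a single clone. The table gives 1 level per group, in FPKM (fragments scaled to transcript length and library size), so every level below is the authors' value with no spread between samples and an unknown read depth. Within each line a gene is said to fall or rise where the authors' deposited table gives it a q below 0.05. These p- and q-values belong to the FPKM as deposited. Changes on the spike-in scale used below are values beside them and were not tested. Differences between the lines carry no test.

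Aldo-keto reductases are NADPH-dependent enzymes that turn aldehydes and ketones into alcohols. Their substrates include sugars, lipid peroxidation products, retinal, steroids and prostaglandins. In lung carcinoma lines with a mutated KEAP1, as A549 is known to be, the transcription factor NRF2 is not held down, and AKR1B10 and AKR1C1 to AKR1C3 belong to the best known NRF2-driven genes. RNase L is an endoribonuclease activated through the oligoadenylate synthetases by double-stranded RNA, and it cuts single-stranded RNA after UU and UA.

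The genes lie at 3 places in GRCh38, in GENCODE v29. AKR1A1 (ENSG00000117448) is on chromosome 1, from 45550543 to 45570049 on the plus strand. AKR1B1 (ENSG00000085662, 134442350 to 134459284, minus strand) and AKR1B10 (ENSG00000198074, 134527592 to 134541408, plus strand) are neighbours on chromosome 7. The AKR1C genes form a cluster on chromosome 10. There AKR1C1 (ENSG00000187134) spans 4963253 to 4983283, AKR1C3 (ENSG00000196139) 5035354 to 5107686 and AKR1C4 (ENSG00000198610) 5195462 to 5218949 on the plus strand. AKR1C2 (ENSG00000151632) spans 4987400 to 5018031 on the minus strand.

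The AKR1C genes are close copies, which bears on how their reads can be told apart. The first 90 coding bases of each, in GENCODE v29 transcripts, are shown because they make this visible, with capitals where a base differs from AKR1C1. The start codons begin at position 4963445 (AKR1C1), 5003835 (AKR1C2), 5094445 (AKR1C3) and 5196868 (AKR1C4) of chromosome 10.
AKR1C1: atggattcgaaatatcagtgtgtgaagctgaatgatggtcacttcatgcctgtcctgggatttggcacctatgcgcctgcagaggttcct
AKR1C2: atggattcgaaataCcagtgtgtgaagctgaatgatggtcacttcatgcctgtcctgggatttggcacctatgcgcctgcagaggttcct
AKR1C3: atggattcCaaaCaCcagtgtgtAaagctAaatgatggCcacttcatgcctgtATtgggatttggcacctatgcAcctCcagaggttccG
AKR1C4: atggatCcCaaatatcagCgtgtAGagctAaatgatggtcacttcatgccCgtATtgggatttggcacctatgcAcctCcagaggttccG

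In these stretches AKR1C2 differed from AKR1C1 at 1 base, AKR1C3 at 11 and AKR1C4 at 12. Over the whole coding sequence of 969 bases, AKR1C1 was 98.0% identical to AKR1C2, with 19 differing positions, 91.4% to AKR1C3 and 88.5% to AKR1C4. AKR1B1 and AKR1B10 were 75.8% identical, and AKR1A1 was between 50.1% and 58.2% identical to the other members. Of the 920 words of 50 bases in the AKR1C1 coding sequence, 51.6% occurred in AKR1C2 transcripts, 14.7% in AKR1C3 and 6.09% in AKR1C4. For AKR1B10, 28.5% of the words occurred in another AKR-named gene, chiefly AKR1B15 and the pseudogene AKR1B10P1, and for AKR1A1 none did. For AKR1B1 7.23% did. Values of AKR1C1 and AKR1C2 are therefore uncertain as separate numbers, and those of AKR1B10, AKR1C3, AKR1C4 and, less so, AKR1B1 in part. Neither the read length nor the handling of shared reads is known here. Only words of the coding sequence were looked up. The 3' untranslated region, 5540 of 6705 bases in AKR1C1 and 2595 of 3756 in AKR1C2, gave no words. AKR1C2 is also overlapped on the other strand by the antisense transcript AL391427.1, at 10.6 FPKM in treated and 19.5 FPKM in untreated RLKO cells and 11.0 FPKM in treated and 17.6 FPKM in untreated WT cells.

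**Figure D1:**
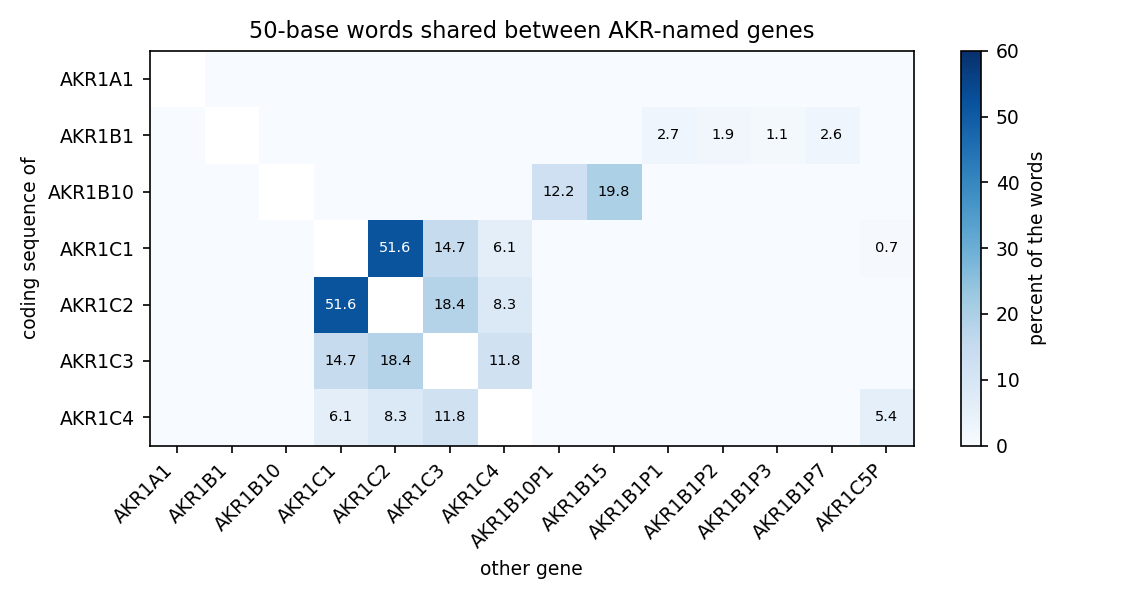
Percent of the 50-base words in the coding sequence of each member (rows) that also occur in transcripts of another AKR-named gene (columns), with unnumbered pale cells at 0 and white cells for a gene against itself. AKR1C1 and AKR1C2 shared 51.6%, the highest value among the pairs plotted.

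The likeness of AKR1C1 and AKR1C2 extends to the bases before a RefSeq transcription start. The 250 bases before 1 such start per gene, on GRCh38.p14, are shown for both and for AKR1C4, the member with the lowest levels. Capitals mark a base that does not match the AKR1C1 entry, which runs on past the start, in an alignment. The AKR1C2 and AKR1C4 windows lie within the GENCODE v29 gene spans given above, and the AKR1C1 window does in part. The windows lie at the following places. They lie at chr10:4963165-4963414 (AKR1C1, plus strand), chr10:5003858-5004107 (AKR1C2, minus strand) and chr10:5196587-5196836 (AKR1C4, plus strand).
AKR1C1: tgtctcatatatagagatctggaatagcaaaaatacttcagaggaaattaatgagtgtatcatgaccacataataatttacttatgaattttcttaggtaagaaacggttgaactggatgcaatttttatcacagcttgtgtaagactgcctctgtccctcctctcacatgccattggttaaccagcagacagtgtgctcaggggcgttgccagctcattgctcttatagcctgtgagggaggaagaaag
AKR1C2: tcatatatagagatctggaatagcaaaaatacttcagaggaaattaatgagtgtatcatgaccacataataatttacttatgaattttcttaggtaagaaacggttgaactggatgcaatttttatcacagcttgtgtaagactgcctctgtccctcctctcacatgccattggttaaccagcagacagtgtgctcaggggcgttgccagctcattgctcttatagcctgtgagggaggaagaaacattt
AKR1C4: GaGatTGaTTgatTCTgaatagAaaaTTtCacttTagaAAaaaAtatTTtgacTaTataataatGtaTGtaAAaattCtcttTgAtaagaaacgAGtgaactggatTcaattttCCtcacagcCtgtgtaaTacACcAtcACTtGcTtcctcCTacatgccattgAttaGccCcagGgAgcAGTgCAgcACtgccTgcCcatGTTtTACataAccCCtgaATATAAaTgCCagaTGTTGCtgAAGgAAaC

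All 250 AKR1C2 bases matched AKR1C1 once 4 bases of AKR1C1 were skipped, while 160 of 250 matched in AKR1C4 and 184 of 250 in AKR1C3. The core of the antioxidant response element through which NRF2 binds was searched as TGACNNNGC on both strands. It occurred in none of the 8 RefSeq promoter entries found for 6 members (250 bases before to 50 after the start), and in 13.3% of 35116 such entries overall. These letters are thus not in these windows, which says nothing of sites elsewhere.

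AKR1B10, which reduces retinal and aliphatic aldehydes, had the highest untreated level of the family, with 3315 FPKM in RLKO and 3290.3 FPKM in WT cells. That level ranked 24 in RLKO and 32 in WT among 12181 protein-coding genes kept because some group reached 1 FPKM. AKR1C3, which makes testosterone from androstenedione and also forms a prostaglandin F, had 2909 FPKM in RLKO and 2768 FPKM in WT cells. AKR1B1, the aldose reductase that converts glucose to sorbitol, had 2062 FPKM in RLKO and 2870.5 FPKM in WT cells. AKR1C2, which inactivates dihydrotestosterone, had 1683 FPKM in RLKO and 2616 FPKM in WT cells. AKR1C1, which inactivates progesterone, had 1089.95 FPKM in RLKO and 1055 FPKM in WT cells. These 5 genes thus stood above 1000 FPKM in both untreated lines. AKR1A1, the general aldehyde reductase, stood lower at 93.6 FPKM in RLKO and 98.5 FPKM in WT. AKR1C4, known from liver for its part in bile acid synthesis, was the lowest, with 10.7 FPKM in RLKO and 2.12 FPKM in WT. Together the 7 genes made up 1.44% of the summed FPKM of protein-coding genes in untreated RLKO and 1.51% in untreated WT cells.

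Between the untreated lines AKR1C4 was higher, and AKR1C2 and AKR1B1 were lower, in RLKO. In FPKM as deposited, the ratio of RLKO to WT was 5.04 for AKR1C4, 0.644 for AKR1C2 and 0.718 for AKR1B1, and between 0.95 and 1.05 for the other 4. On the scale of the ERCC spike-in RNAs, which the submitters added before rRNA depletion, the log2 difference (RLKO minus WT, with 1 added to each scaled level) was 1.71 for AKR1C4 (1.06 with 5 added), and 5 of 12181 protein-coding genes had a higher one. It was -0.93 for AKR1C2 and -0.77 for AKR1B1, against a median of -0.24 over protein-coding genes. The family median was -0.28. The signs for AKR1B10, AKR1C1 and AKR1C3, between -0.28 and -0.22, turned positive in FPKM as deposited, and those of AKR1C1 and AKR1C3 also under median-ratio scaling. The FPKM of AKR1C2 relative to AKR1C1 was 1.61 in treated and 1.54 in untreated RLKO cells, against 2.66 in treated and 2.48 in untreated WT cells, so it was lower in both RLKO groups than in both WT groups. None of these differences between lines was tested, and with 1 RLKO line in the study a difference of the line and one of RNase L cannot be told apart.

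**Figure D2:**
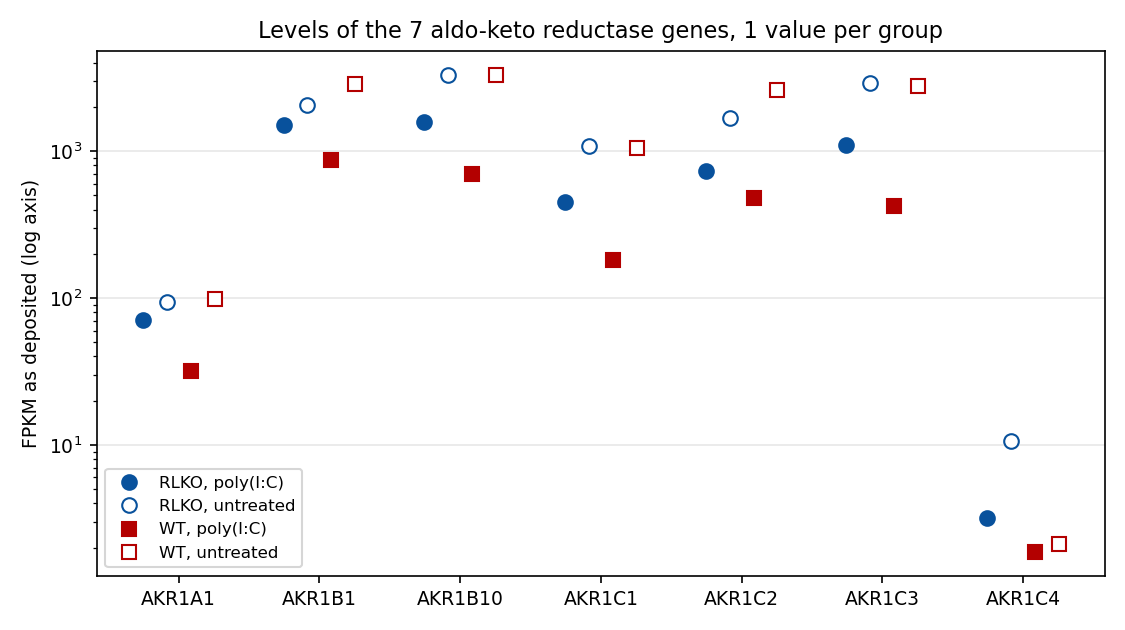
FPKM as deposited (log axis) of the 7 genes, 1 point per group and no error available: treated cells filled, untreated cells open, RLKO blue circles and WT red squares. AKR1C4 had 10.7 FPKM in untreated RLKO and 2.12 FPKM in untreated WT cells, while AKR1B10 had 3315 FPKM in untreated RLKO and 3290.3 FPKM in untreated WT cells, at nearly the same height.

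After poly(I:C) all 7 members had a lower level than in untreated cells in both lines, whether in deposited FPKM or relative to the spike-in RNAs. Over protein-coding genes 80.1% in RLKO and 78.4% in WT were lower on the spike-in scale, and 63.4% in RLKO and 58.2% in WT in FPKM as deposited. AKR1C4 was the member that fell in RLKO, and AKR1C3 the one that fell in WT. Relative to the spike-in RNAs, AKR1C1, AKR1C2 and AKR1C3 stood at 36.7%, 38.3% and 33.7% of their untreated level in RLKO and at 11.2%, 11.97% and 10.0% in WT. AKR1B10 stood at 41.8% in RLKO and 13.8% in WT. AKR1A1 and AKR1B1 kept more in RLKO, 66.5% and 64.8%, and 21.3% and 19.6% in WT.

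The spike-in scale matters for reading these values. The spike-in factor of treated cells was 1.13 times that of untreated cells in RLKO and 1.53 times in WT, from 49 ERCC rows. The median log2 change of all 12181 protein-coding genes was -0.24 in RLKO and -0.70 in WT (in FPKM as deposited, -0.10 in RLKO and -0.17 in WT). Levels on this scale are relative to the spike-ins and are not read here as levels per cell. The spike-ins are known only to have been added before rRNA depletion, and fewer cells and less RNA per cell cannot be told apart. IFIT2, an interferon-induced gene, rose in both lines, to 604 FPKM in treated RLKO cells, against 1.41 FPKM untreated, and to 1113 FPKM in treated WT cells, against 1.09 FPKM untreated. IFNB1, an interferon gene, had 322 FPKM in treated and 0.0519 FPKM in untreated RLKO cells, and 565 FPKM in treated and 0.0752 FPKM in untreated WT cells. It was called in neither line (q = 0.9995 in RLKO and 0.322 in WT in the authors' deposited table). A gene not called can thus still have very different levels. All 5 epithelial markers reached 1 FPKM in some group, with sums of 584 to 1633 FPKM per group. These sums came mainly from KRT8 (318 to 944 FPKM over the groups) and KRT18 (256 to 750 FPKM). KRT19 had 6.64 to 54.0 FPKM, CDH1 2.93 to 4.52 FPKM and EPCAM 0.558 to 1.03 FPKM, with only untreated WT cells above 1 FPKM for EPCAM. Of 9 alveolar type II markers 2 did, SFTPB and ABCA3, with sums of 6.75 to 8.16 FPKM, and SFTPA1, SFTPD and NKX2-1 were at or near 0. Of 4 markers of other cell types COL1A1 did, with 2.06 to 7.17 FPKM over the groups.

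In RLKO AKR1C4 fell, and the other 6 members were not called. AKR1C4 had 3.18 FPKM in treated and 10.7 FPKM in untreated RLKO cells, a log2 change of -1.62 on the spike-in scale, which was -1.02 with 5 added in place of 1. In FPKM as deposited its log2 change was -1.48, with p = 0.00015 and q = 0.0279 in the authors' deposited table. Of the 22087 rows kept, 6 fell in RLKO, or 0.0272%, while 113 rose, or 0.512%, and of the 7 members 1 fell and none rose. AKR1C3 had 1108 FPKM in treated and 2909 FPKM in untreated RLKO cells, a log2 change of -1.57 on the spike-in scale, or -1.39 in deposited FPKM (p = 0.0876 in the authors' deposited table). AKR1C1 had 453 FPKM in treated and 1089.95 FPKM in untreated RLKO cells, a log2 change of -1.44. AKR1C2 had 730.2 FPKM in treated and 1683 FPKM in untreated RLKO cells, a log2 change of -1.38. AKR1B10 had 1569 FPKM in treated and 3315 FPKM in untreated RLKO cells, a log2 change of -1.26. For every member but AKR1C4 the q in RLKO was 0.9995 in the authors' deposited table.

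Placed among 12181 protein-coding genes by change in RLKO, 15 had a lower value than AKR1C4, 27 than AKR1C3, 64 than AKR1C1, 98 than AKR1C2 and 217 than AKR1B10. Thus 5 of 7 members lay at a log2 change of -1 or lower on the spike-in scale, where 5.34% of protein-coding genes lay. Under median-ratio scaling AKR1B10 was at -0.95. AKR1A1 had 70.4 FPKM in treated and 93.6 FPKM in untreated RLKO cells (log2 -0.58, percentile 18.0 of protein-coding genes). AKR1B1 had 1513 FPKM in treated and 2062 FPKM in untreated RLKO cells (log2 -0.62, percentile 15.98). AKR1C4 was the only member with an unadjusted p under 0.05 in RLKO in the authors' deposited table, against a background of 2.23% of rows lower at that threshold. The 97 protein-coding genes with a mean of 1000 FPKM or more had a median of -1.01, and AKR1B1, itself that abundant, lay above it.

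In WT AKR1C3 fell, and the 6 members other than AKR1C4 stood at 10.0% to 21.3% of their untreated spike-in-scaled level. AKR1C3 had 425 FPKM in treated and 2768 FPKM in untreated WT cells, a log2 change of -3.31 on the spike-in scale. In FPKM as deposited its log2 change was -2.70, with p = 0.00145 and q = 0.0241 in the authors' deposited table. In WT 740 of the 22087 rows fell, or 3.35%, and 990 rose, or 4.48%. AKR1B1 had 863 FPKM in treated and 2870.5 FPKM in untreated WT cells (log2 -2.35 on the spike-in scale, -1.73 in FPKM with q = 0.0722 in the authors' deposited table). AKR1C2 had 479 FPKM in treated and 2616 FPKM in untreated WT cells (log2 -3.06 on the spike-in scale, -2.45 in FPKM with q = 0.0718 in the authors' deposited table). Both were past the threshold only at a q below 0.1. AKR1C1 had 180.1 FPKM in treated and 1055 FPKM in untreated WT cells (log2 -3.16 on the spike-in scale, -2.54 in FPKM with q = 0.207 in the authors' deposited table). AKR1B10 had 696 FPKM in treated and 3290.3 FPKM in untreated WT cells (log2 -2.85 on the spike-in scale, -2.24 in FPKM with q = 0.224 in the authors' deposited table). AKR1A1 had 32.1 FPKM in treated and 98.5 FPKM in untreated WT cells (log2 -2.19 on the spike-in scale, -1.59 in FPKM with q = 0.116 in the authors' deposited table). Lower levels with an unadjusted p under 0.05 in the authors' deposited table were found for 6 of 7 members and for 9.98% of all rows.

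AKR1C4 was the exception in WT. It had 1.87 FPKM in treated and 2.12 FPKM in untreated WT cells, a log2 change of -0.53 on the spike-in scale, and 57.7% of protein-coding genes had a lower one. In FPKM as deposited its log2 change was -0.12, with p = 0.781 in the authors' deposited table. Its sign turned to 0.02 under median-ratio scaling. Its WT level was low before treatment, so a log2 change with 1 added understates any change, and the ratio of the spike-in-scaled levels was 0.577. The family median in WT was -2.85 and in RLKO -1.38. The median of the protein-coding genes with a mean of 1000 FPKM or more was -2.78 in WT. Below it lay 4 of the members, AKR1B10, AKR1C1, AKR1C2 and AKR1C3. Of these AKR1C1 is not itself in that class, since its mean over the groups is under 1000 FPKM.

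**Figure D3:**
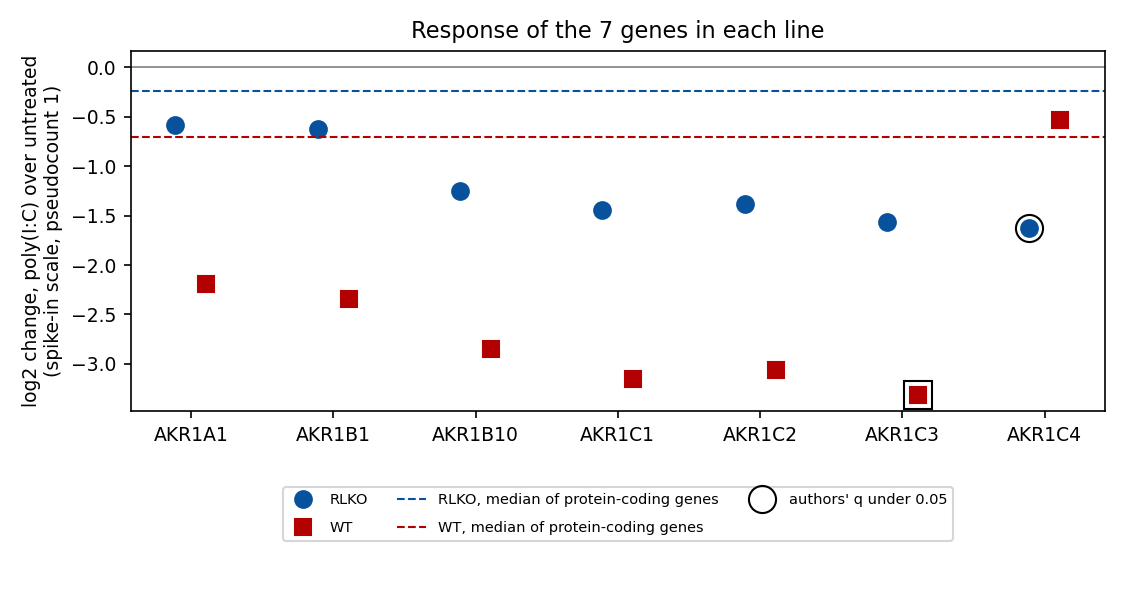
Log2 ratio of treated to untreated level on the spike-in scale (vertical axis, pseudocount 1) for each gene, RLKO as blue circles and WT as red squares, ringed in black where q, which belongs to the FPKM, was under 0.05 in the authors' deposited table, and dashed lines at the median of protein-coding genes. AKR1C4 in RLKO (-1.62) and AKR1C3 in WT (-3.31) are ringed, and AKR1C4 is the 1 gene whose RLKO point lies below its WT point.

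The step between the lines was nearly constant over 6 members. The difference of the responses, RLKO minus WT on the log2 scale, ran from 1.597 for AKR1B10 to 1.74 for AKR1C3, with AKR1A1 at 1.61, AKR1C2 at 1.68, AKR1C1 at 1.71 and AKR1B1 at 1.72. The median over protein-coding genes was 0.47 and over the 97 genes at 1000 FPKM or more 1.83. Such values were not particular to the family. Of 12181 protein-coding genes 516 had a higher one than AKR1C3 and 766 than AKR1B10. The 26 other KEAP1-NRF2 targets had a median of 1.23, with TKT at 1.61 and TXNRD1 at 1.66, both picked after their values were seen. The order of the members by change was the same in both lines apart from AKR1C4, from AKR1A1 through AKR1B1, AKR1B10, AKR1C2 and AKR1C1 to AKR1C3. AKR1C4 had a difference of -1.09 in the opposite direction, and 11738 of 12181 protein-coding genes had a higher one. This difference, the AKR1C4 change in RLKO and its untreated difference between the lines share 1 level, 10.7 FPKM in untreated RLKO cells. The other groups had 1.87 to 3.18 FPKM. Of the AKR1C4 coding words 17.6% occurred in another AKR-named gene, and the part of shared reads in these levels was not tested. The treated levels on the spike-in scale were higher in RLKO than in WT for all 7 members, from 1.68 times for AKR1C2 to 2.88 times for AKR1C3. None of these differences carries a test, since there is 1 value per group. With 1 RLKO line, a difference of the line and one of RNase L cannot be told apart here either.

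**Figure D4:**
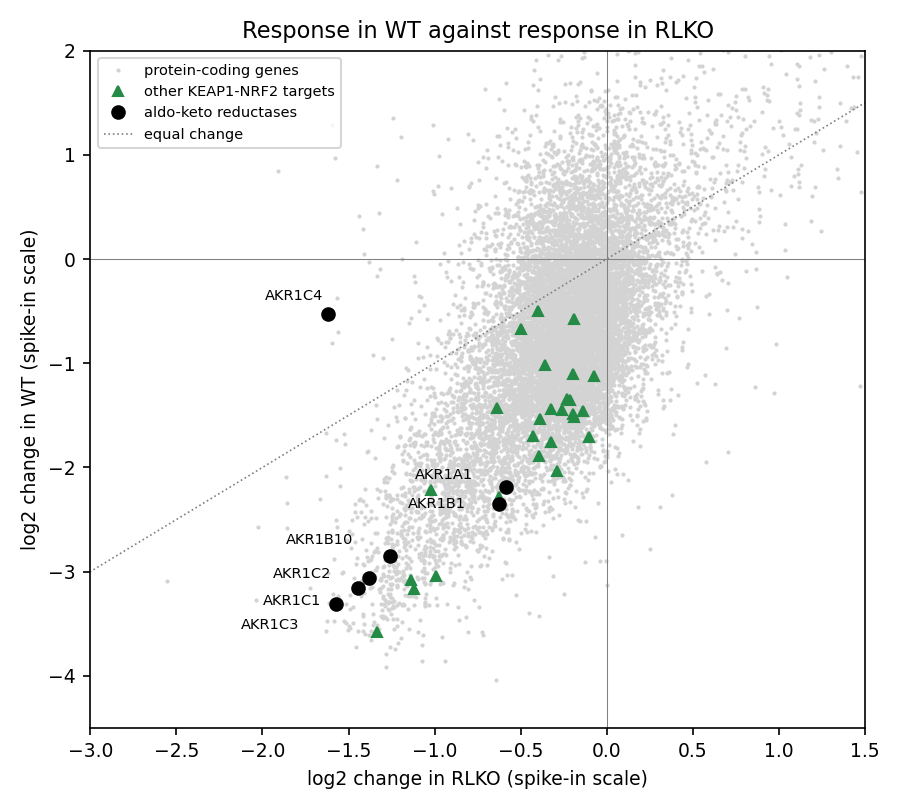
Log2 change in WT (vertical axis) against log2 change in RLKO (horizontal axis), both on the spike-in scale, for protein-coding genes (grey, with 179 outside the axes), the 26 other KEAP1-NRF2 targets (green) and the 7 aldo-keto reductases (black, named). The dotted line marks equal change, and AKR1C4 is the 1 named gene above it.

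The mRNAs differed in length and composition. In the deposited half-life column, whose header credits another study and names no unit, AKR1A1 and AKR1B1 stood at the maximum of 24, AKR1C3 at 21.5, and the other 4 had no value. The median of 9527 protein-coding genes with a value was 4, and 679 stood at the maximum. Deposited transcript lengths were 1414 to 1930 bases for 5 members, 3756 for AKR1C2 and 6705 for AKR1C1, with a protein-coding median of 3623. UU and UA pairs, counted in the longest GENCODE v29 coding transcript, numbered 72.6 per kilobase in AKR1A1, 88.0 in AKR1B1, 98.1 in AKR1B10 and 108.2 in AKR1C4. They numbered 140.9 in AKR1C1 and 154.4 in both AKR1C2 and AKR1C3, against a median of 115.3 over 12093 genes.

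Of 21 other AKR-named rows 9 were kept, of which 4 fell in WT and none in RLKO. Of all 22087 kept rows 3.35% fell in WT and 0.0272% in RLKO. In RLKO 2 of the 9 (AKR1B15 and AKR1B10P1) had a lower level with an unadjusted p under 0.05 in the authors' deposited table, beside 2.23% of all kept rows. In WT 5 of the 9 did, beside 9.98% of all kept rows. AKR1B10P1, a processed pseudogene on chromosome 10, had 196 FPKM in treated and 474 FPKM in untreated RLKO cells and 87.5 FPKM in treated and 436 FPKM in untreated WT cells. Its treated to untreated ratios were 0.414 in RLKO and 0.201 in WT, beside 0.473 in RLKO and 0.211 in WT for AKR1B10. AKR1B1P2 and AKR1B1P7, pseudogenes of AKR1B1, fell in WT to ratios of 0.233 and 0.288, beside 0.301 for AKR1B1. AKR1B15, the third gene of the chromosome 7 group, fell in WT to 8.57 FPKM in treated cells, against 63.5 FPKM in untreated cells. These 4 were named after their values were seen. How far these rows hold reads of the parent genes was not tested.

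Of 33 kept rows within 300 kb of a member and not AKR-named, none had a q under 0.05 in either line in the authors' deposited table from Cuffdiff. Over all kept rows 0.0272% fell and 0.512% rose in RLKO, and 3.35% fell and 4.48% rose in WT. An unadjusted p under 0.05 in the authors' deposited table was given to 3 of them in RLKO and 5 in WT. All had a lower level except CCDC17, near AKR1A1, in WT, with a ratio of treated to untreated FPKM of 3.56. Of all kept rows 2.23% in RLKO and 9.98% in WT were lower at that p. NET1, beyond AKR1C4, had ratios of treated to untreated FPKM of 0.67 in RLKO and 0.688 in WT. GPBP1L1, near AKR1A1, had 0.977 in RLKO and 0.898 in WT, and PRDX1, a peroxiredoxin gene on its other side, had 0.568 in RLKO and 0.185 in WT. NET1, GPBP1L1, PRDX1 and CCDC17 were picked after their values were seen.

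Related genes were read by lists of shared regulation or pathway. Beside each list stand the shares of all 22087 kept rows. In RLKO 0.0272% of them fell and 0.512% rose, and in WT 3.35% fell and 4.48% rose. Lower levels with an unadjusted p under 0.05 in the authors' deposited table made up 2.23% in RLKO and 9.98% in WT. Of the 26 KEAP1-NRF2 targets outside the family, none was called in RLKO and 1 fell in WT. All 26 had a change below 0 in both lines on the spike-in scale, as did 80.1% of protein-coding genes in RLKO and 78.4% in WT. In FPKM as deposited 23 of the 26 were lower in RLKO and 24 in WT, beside 63.4% of protein-coding genes in RLKO and 58.2% in WT. The list's medians were -0.34 in RLKO and -1.50 in WT. None of the 26 had an unadjusted p under 0.05 in RLKO in the authors' deposited table, and 8 did in WT, all with a lower level. In the lists below, such a p with a lower level in WT was given to 7 of 16 oxidoreductases. It was also given to 9 of 25 genes of the steroid list, 3 of 8 of the polyol list and 2 of 6 of the wider superfamily. With a higher level in WT it was given to 1 oxidoreductase, 4 genes of the steroid list and 1 of the superfamily. NQO1, the quinone reductase, had 1859.8 FPKM in treated and 3611 FPKM in untreated RLKO cells (log2 -1.14), and 638 FPKM in treated and 3535 FPKM in untreated WT cells (log2 -3.08). FTL, the ferritin light chain, had 4738 FPKM in treated and 5108 FPKM in untreated RLKO cells (log2 -0.29), and 2064 FPKM in treated and 5536 FPKM in untreated WT cells (log2 -2.04). GSTM3, a glutathione transferase, fell in WT (q = 0.00546 in the authors' deposited table) and had a log2 change of -3.17 on the spike-in scale. In RLKO 4 of the 26 lay at -1 or lower on the spike-in scale, as did 5 of the 7 aldo-keto reductases and 5.34% of protein-coding genes.

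Among 16 other aldehyde and ketone oxidoreductases, none was called in RLKO (DHRS2 alone had an unadjusted p under 0.05 in the authors' deposited table, with a higher level), and 1 fell and 1 rose in WT. ADH5, which clears formaldehyde, fell in WT with a log2 change of -3.41 and had -1.36 in RLKO. DHRS2, a short-chain reductase, rose in WT with a log2 change of 1.79 and had 0.57 in RLKO. ALDH1A1, which makes retinoic acid from retinal, had 1836 FPKM in treated and 3446 FPKM in untreated RLKO cells, and 737 FPKM in treated and 2201 FPKM in untreated WT cells. ALDH3A1, an aldehyde dehydrogenase, had changes of -0.34 in RLKO and -1.80 in WT. The list's medians were -0.36 in RLKO and -1.60 in WT.

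Of 25 genes of steroid, prostaglandin and retinoid metabolism, 1 rose in RLKO, and 1 rose and 2 fell in WT, with medians of -0.20 in RLKO and -1.36 in WT. Among those not called in RLKO, 1 had a lower level with an unadjusted p under 0.05 in the authors' deposited table. The gene that rose in both was PTGS2, the inducible cyclooxygenase that feeds prostaglandin synthesis upstream of AKR1C3. It had 20.8 FPKM in treated and 5.78 FPKM in untreated RLKO cells (log2 1.52), and 60.7 FPKM in treated and 6.08 FPKM in untreated WT cells (log2 2.56). HSD17B11 and HSD17B10, hydroxysteroid dehydrogenases, fell in WT, with log2 changes of -3.25 for HSD17B11 and -2.23 for HSD17B10, beside -1.24 and -0.85 in RLKO. Of 8 genes of the polyol and glucuronate pathway, which AKR1B1 and AKR1A1 serve, UGP2, which makes the nucleotide sugar UDP-glucose, fell in WT (log2 -2.40, with -0.75 in RLKO). None of these 8 was called in RLKO, and 0 had an unadjusted p under 0.05 there in the authors' deposited table. The medians were -0.28 in RLKO and -1.18 in WT. UGDH, which oxidises UDP-glucose and is also among the NRF2 targets, had changes of -0.20 in RLKO and -1.10 in WT. Of 6 kept members of the wider superfamily, AKR1B15 fell in WT (log2 -3.33) and had -1.06 in RLKO, while KCNAB2, a potassium channel subunit, had -0.27 in RLKO and -1.003 in WT. The medians of these 6 were -0.36 in RLKO and -1.02 in WT, and AKR1B15 alone had an unadjusted p under 0.05 in RLKO in the authors' deposited table.

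**Figure D5:**
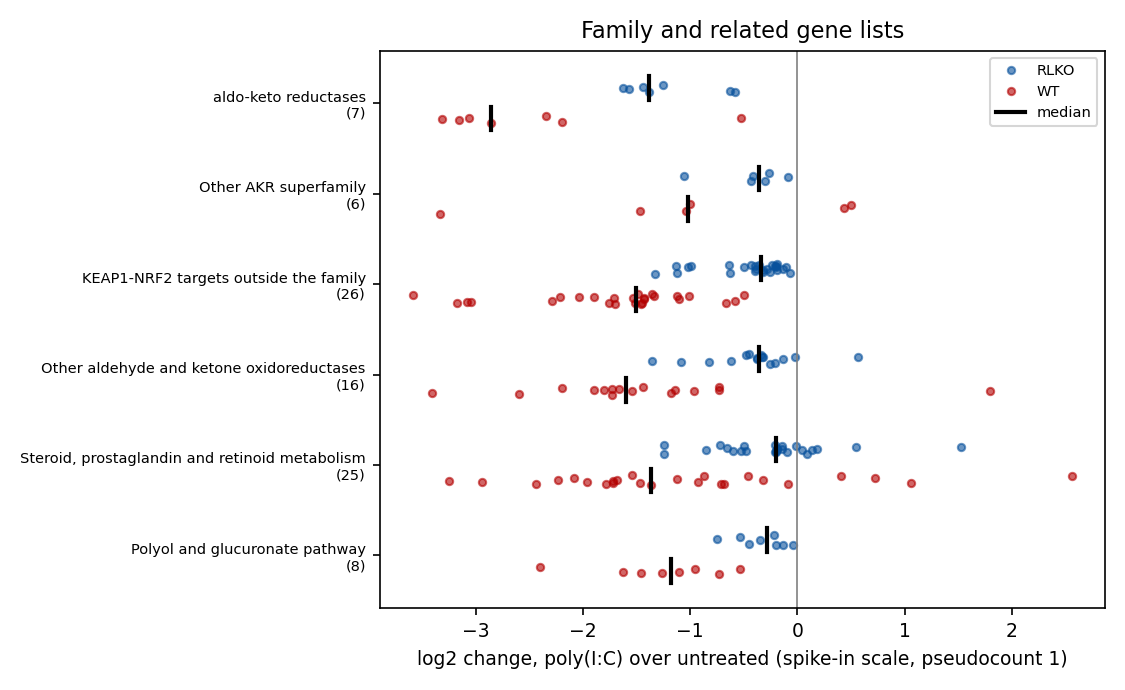
Log2 change on the spike-in scale (horizontal axis) for each measured gene of the family and of 5 related lists, with the number of genes in parentheses, RLKO in blue above WT in red, and medians over genes as black bars. The family medians, -1.38 in RLKO and -2.85 in WT, lie left of those of the other lists, and its 7 genes were not tested as a set.

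Genes with the most similar pattern over the 4 groups were found by the Euclidean distance of centred log2 levels, among protein-coding genes within 4-fold in mean level. For AKR1B10 they were HSPA8, a constitutive chaperone (distance 0.0626, 181 genes compared), ANXA1 and HSP90AA1. HSPA8 had 1967 FPKM in treated and 3960 FPKM in untreated RLKO cells, and 825 FPKM in treated and 3947 FPKM in untreated WT cells. For AKR1C1 they were OST4, a subunit of the oligosaccharyltransferase (0.0852, 542 genes compared), PSMC2, a proteasome ATPase, and again HSP90AA1. AKR1C4 had 1 close match, HOOK1, a microtubule-binding linker (0.282, 6194 genes compared), with 3.86 FPKM in treated and 12.2 FPKM in untreated RLKO cells, and 2.48 FPKM in treated and 3.43 FPKM in untreated WT cells. The next, EHF and PDZK1, were at distances of 0.740 and 0.771.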

How the data were processed

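RNA of 12 samples in 4 groups of 3 was sequenced after rRNA depletion, with ERCC RNAs added first. FastQC, Trimmomatic 0.32, TopHat2 2.0.6, Bowtie2 2.0.2, Cuffdiff 2.2.1 and the build GRCh38.p12 are named, without settings, per the submitters' processing notes. The authors deposited levels in FPKM as 1 value per group, and their p-values and q-values for poly(I:C) within each line, per the file headers. The deposited table also holds GC content in percent, half-lives and lengths, per the file headers. Library scaling, strandedness and read length are not given in the sources used here. Samples of a group are called independent in the series' design text, and whether they were separate cultures is not stated, so p-values may measure technical spread. The tests planned per sample were replaced by the authors' q-values, since no values of single samples were at hand.

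Rows were kept at 1 FPKM or more in a group, without 86 rows with status HIDATA and 45 that repeat an identifier. This left 22087. Levels were divided by the median ratio of 49 ERCC rows (mean at least 1 FPKM), and log2 changes were taken with a pseudocount of 1. The authors' p-values and q-values are for FPKM, not for these scaled levels. Call thresholds of 0.05 apply to the authors' q over all genes. Depth is unknown, so no interval is given. The level of the targeted gene is not reported here. The calculation of changes on the spike-in scale was tested on simulated data, as medians over many well-expressed genes. Single genes at low levels, as AKR1C4, and shared reads were not tested there. Named genes were the 7 members, in each list up to 2 called genes per direction or, where none was called, the 2 most abundant, and the 3 nearest patterns of AKR1B10, AKR1C1 and AKR1C4. Members and lists were chosen with earlier results of these data known. Sequences come from GENCODE v29 and RefSeq. Coding sequences were aligned end to end with Biopython 1.88. Alternatives were other pseudocounts, scalings, filters and thresholds. Python 3.11.15 was used.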

Additional observations from a re-analysis of the deposited data

How the results depend on the processing

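No paired analysis was possible because the table gives 1 value per group, and for the same reason no replicate could be left out. The family median in RLKO stayed within 1.5-fold of -1.38 under 8 alternatives (-1.39 to -1.08), as did the difference of the responses (1.16 to 1.70), although 2 of the 8, the filters, left the same members. In WT the median was -2.24 in FPKM as deposited, which leaves out the 1.53-fold ratio of the spike-in factors. Under median-ratio scaling, which uses other factors, it was -2.03. The untreated difference, -0.28 on the spike-in scale, was 0.0108 in FPKM as deposited, with AKR1B10 at 0.0108, AKR1C1 at 0.0470 and AKR1C3 at 0.0716. Under median-ratio scaling AKR1C1 was at 0.0216, AKR1C3 at 0.0461 and the WT change of AKR1C4 at 0.0212. The filters on low values and leaving out AKR1C4 cannot move the value of a single member. Under the other 5 alternatives, of 140 such values 120 moved by less than 1.5-fold, 14 by more and 6 changed sign. With a pseudocount of 5, AKR1C4 had a change of -1.02 in RLKO and an untreated difference of 1.06. Members called numbered 0 in either line at q under 0.01 (at an unadjusted p under 0.05, 1 in RLKO and 6 in WT by Cuffdiff), and 3 in WT at q under 0.1, while re-adjusting the authors' p over kept rows or kept protein-coding rows left 1 in each line. These calls rest on the authors' own scaling of FPKM, whose method is unknown here. The unknown depth limits AKR1C4 most, since its WT levels were 1.87 and 2.12 FPKM.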
